A study of Oryza sativa with 2 samples.

Results

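The 10 small heat shock protein genes described here were picked by locus identifier from the deposited count table of 55986 rice gene models. They comprise 4 class I genes in a cluster on chromosome 1, 4 class I genes on chromosome 3, the class II gene HSP18.0 and HSP26.7, whose product is targeted to plastids. All 10 passed the filter of at least 10 counts in both libraries together, which 26638 gene models passed. Messenger RNA was sequenced from whole 14-day seedlings of the rice (Oryza sativa) cultivar CARI Dhan 7. The control seeds germinated in distilled water (0 dS/m). The salinity seeds germinated in a mixture of NaCl, sodium sulfate, CaCl2 and magnesium sulfate salts with an electrical conductivity of 6 dS/m. The groups shared cultivar, age and RNA preparation, and no heat treatment is described in the labels. With 1 library per group there are no replicates to set a difference against. No p-values are therefore given, and intervals describe the counting error alone.

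Small heat shock proteins are molecular chaperones built around an alpha-crystallin domain. They assemble into oligomers, bind other proteins that are unfolding, and hold them until the ATP-driven chaperones HSP70 and HSP101 refold them. Plants have an unusually large family, with cytosolic classes and members sent to plastids, mitochondria, the endoplasmic reticulum and peroxisomes. Heat shock factors switch most of these genes on under heat, and several are also active in seeds and during salt, drought or oxidative stress.

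Totals were 45359020 counts for the control and 15031328 for the salinity library. Every nonzero salinity count was an even number, as were 61.7% of the nonzero control counts. Because each fragment may have been counted more than once, intervals were computed in read pairs, where 1 pair stands for 2 counts of the control or 4 counts of the salinity library, an approximation drawn from the counts. Of the nonzero salinity counts 70.6% were multiples of 4, and those of HSP16.6 (62), HSP16.9A (242) and HSP17.7 (1214) were not. Levels are counts per 1e6 scaled counts (CPM) or CPM per kb of exon, and ratios are log2 of salinity over control. Genes count as higher or lower where the entire 95% interval is past 2-fold, and otherwise as within the range, which includes genes with too few counts to tell. By this rule 7.97% of the measured gene models were higher and 5.17% lower, and the median log2 ratio of all measured models was -0.09. Leaf and root transcripts were present in both libraries. The summed level of 3 leaf antenna genes stood at 21487 CPM without and 27932 CPM with salt, and that of 5 root genes was 1132 and 757 CPM. Of 7 grain genes, the sum was 1433 CPM without salt and 12.2 CPM with it, and AMY1A and GLUA1 were at 0 counts under salinity. GLUA1 had only 19 control counts (0.384 CPM), less than the 0.872 CPM that a salinity count of 0 allows, so its 0 shows no difference. AMY1A carried most of the grain sum, and the other 6 grain genes together stood at 42.5 and 12.2 CPM. The part of these differences in the results below was not tested. In RNA from whole seedlings, fewer cells of a type and less RNA per cell cannot be told apart.

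Of the 10 genes, 6 were higher in the salinity library, 1 was lower, and 3 lay within the range. By the same rule 7.97% of all measured models were higher and 5.17% lower, so 1 lower of 10 is near the share over all models. With the deposited counts in place of read pairs 7 of the 10 genes were higher and 1 lower, against 10.6% and 10.3% of all measured models by that rule. The median log2 ratio of the 10 genes was 2.08. Among the class I members the calls differed by location. All 4 class I genes on chromosome 3 were higher, with log2 ratios from 1.84 to 5.18. None of the 4 on chromosome 1 was higher in read pairs (1, HSP16.9C, with the deposited counts), and their log2 ratios ran from -2.44 to 1.49. With 7.97% of all measured models higher, 0 of 4 is near that share. The point estimates of these sets did not overlap, but the gap at the boundary was within counting error, since HSP17.7 exceeded HSP16.9C by 0.35 with an interval of -0.20 to 0.92. HSP18.0 and HSP26.7 lay between the extremes of the chromosome 3 genes.

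**Figure D1:**
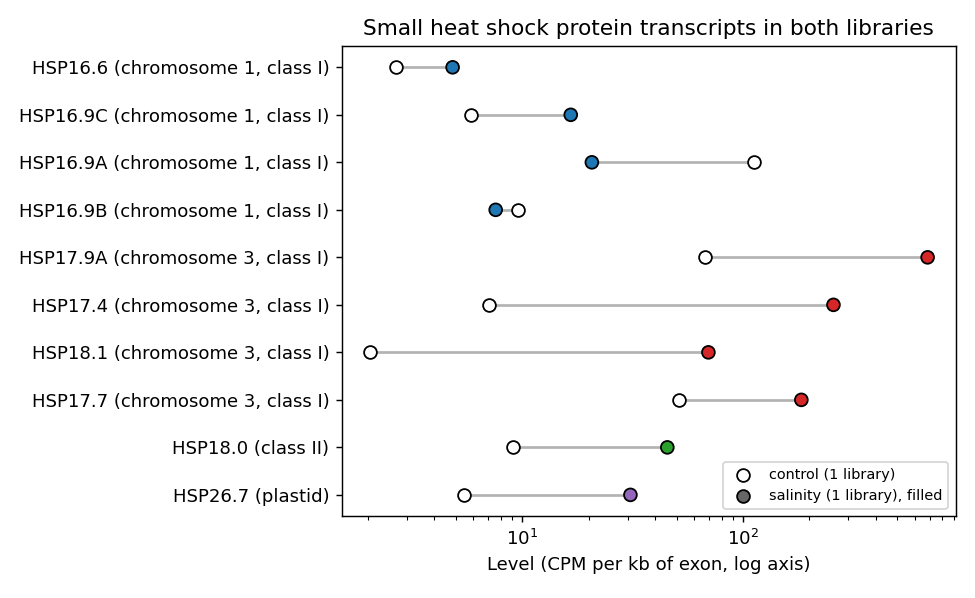
Level of each of the 10 genes in CPM per kb of exon on a log axis, with an open circle for the control library and a filled circle for the salinity library. The filled circles of the chromosome 3 genes lie to the right of their open circles, while HSP16.9A on chromosome 1 goes from 112 to 20.7 CPM per kb.

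HSP17.9A (LOC_Os03g15960, chromosome 3, 8805567 to 8806601, plus strand) was the most abundant of the 10 genes under salinity. It is a cytosolic class I chaperone gene. Its level was 67.4 CPM per kb in the control library and 686 CPM per kb in the salinity library, from 3454 and 9772 counts. This put it above 95.3% of detected gene models in the control and above 99.6% in the salinity library. The log2 ratio was 3.35 (interval 3.26 to 3.44), or 10.2-fold higher. The 2 gene models outside the set with the nearest levels over both libraries were LOC_Os09g38090, at 66.7 CPM (control) and 733 CPM (salinity), and LOC_Os03g50870, at 76.0 and 631 CPM. HSP17.9A itself stood at 69.7 and 709.9 CPM. The files and the name table do not annotate those models.

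HSP17.4 and HSP18.1, further class I genes, had the highest ratios of the set. HSP17.4 (LOC_Os03g16020, chromosome 3, 8833913 to 8834377, minus strand) was at 7.03 CPM per kb in the control and 257 CPM per kb in the salinity library, on 162 and 1644 counts. Its log2 ratio was 5.18 (interval 4.84 to 5.55), or 36.1-fold higher. HSP18.1 (LOC_Os03g16030, chromosome 3, 8834823 to 8835802, plus strand) was at 2.04 and 69.7 CPM per kb, on 99 and 940 counts. Its log2 ratio was 5.07 (interval 4.65 to 5.57), or 33.6-fold higher. These genes are transcribed away from each other, with 445 bases between the gene models. Their ratios differed by 0.11 on the log2 scale, with an interval of -0.48 to 0.69, which is within counting error. Both stood above 99.3% of the measured gene models in log2 ratio.

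HSP17.7 (LOC_Os03g16040, chromosome 3, 8838031 to 8838510, minus strand) moved less than its neighbours. It was at 51.2 CPM per kb in the control and 184 CPM per kb under salinity, on 1218 and 1214 counts, a log2 ratio of 1.84 (interval 1.64 to 2.04). Its control level was therefore well above those of HSP17.4 and HSP18.1, while under salinity it lay below HSP17.4. The models of HSP17.4 and HSP17.7 have exon lengths of 465 and 480 bases, and the RefSeq genes of these names span 1.82 and 1.92 times as much. Reads outside the shorter models were not counted, which limits the comparison of these levels with those of the other genes. The ratio between libraries is free of this only if coverage along the transcripts was alike in both, which was not tested.

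The chromosome 1 genes went different ways. HSP16.9A (LOC_Os01g04370, chromosome 1, 1948737 to 1949587, minus strand) was the most abundant of the 10 genes in the control library, at 112 CPM per kb from 4721 counts. In the salinity library it was at 20.7 CPM per kb from 242 counts. Its log2 ratio was -2.44 (interval -2.83 to -2.07), or 5.41-fold lower, which made it the only member called lower. It ranked above 97.3% of detected gene models in the control and above 79.4% in the salinity library.

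The other class I members on chromosome 1 were below HSP16.9A in both libraries. HSP16.9C (LOC_Os01g04360, chromosome 1, 1944247 to 1945035, minus strand) was at 5.89 CPM per kb in the control and 16.57 CPM per kb under salinity, a log2 ratio of 1.49 (interval 0.96 to 2.003). Its interval reached just inside 2-fold, and it was called higher with the deposited counts. HSP16.6 (LOC_Os01g04340, chromosome 1, 1934117 to 1935048, plus strand) was at 2.66 and 4.83 CPM per kb, on 123 and 62 counts, with a log2 ratio of 0.85 (interval -0.05 to 1.68). HSP16.9B (LOC_Os01g04380, chromosome 1, 1951928 to 1952771, plus strand) was at 9.52 and 7.57 CPM per kb, on 398 and 88 counts, with a log2 ratio of -0.33 (interval -1.04 to 0.31). Neither gene showed a difference beyond counting error. HSP16.9A and HSP16.9B also face away from each other, 2340 bases apart, and their log2 ratios differed by 2.12 (interval 1.31 to 2.88).

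A further class I gene, HSP17.9B (LOC_Os01g04350), lies inside the chromosome 1 cluster between HSP16.6 and HSP16.9C but is not among the 10 genes. It was at 99.6 CPM per kb without salt and 103 CPM per kb with it, and its log2 ratio was 0.04 (interval -0.13 to 0.21). In the control it stood close to HSP16.9A, whereas under salinity HSP16.9A was at 20.7 CPM per kb.

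**Figure D2:**
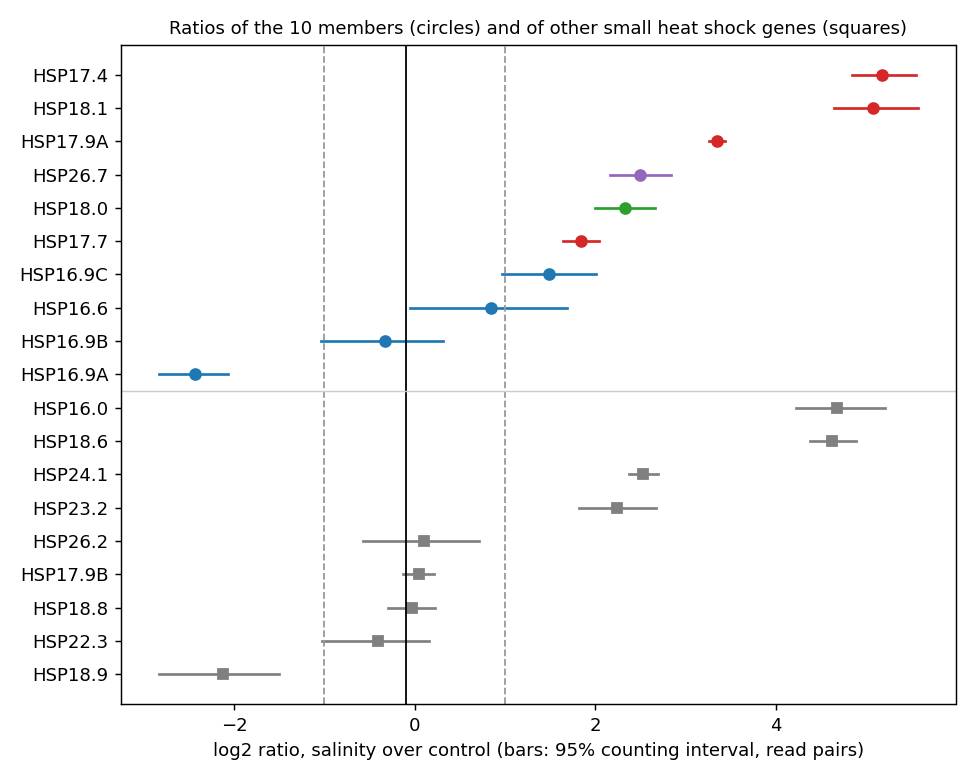
Log2 ratio of salinity over control with its 95% counting interval for the 10 genes (circles, coloured by chromosome group) and for other named small heat shock genes (squares), with dashed lines at 2-fold and a solid line at the median of all measured models. The chromosome 3 genes lie at 1.84 or above and the chromosome 1 genes at 1.49 or below. HSP17.8 and LOC_Os02g10710 are not drawn.

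The 4 chromosome 3 genes summed to 99.6 CPM in water-grown and 986 CPM in salt-grown seedlings, a log2 ratio of 3.31 (interval 3.23 to 3.38). The 4 chromosome 1 genes together were at 110.5 and 41.6 CPM, a log2 ratio of -1.41 (interval -1.66 to -1.17). HSP16.9A carried most of that sum, with 86.3% of the read pairs of these 4 genes in the control and 42.3% under salinity. The other 3, HSP16.9C, HSP16.6 and HSP16.9B, were within the range at 1.49, 0.85 and -0.33, so the lower sum does not describe each gene. With HSP17.9B added, which was decided after its values were seen, the chromosome 1 sum was at 205 and 139 CPM, a log2 ratio of -0.56 (interval -0.70 to -0.42).

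The make-up of the class I pool changed with these sums, and shares within a library do not depend on the scaling between libraries. Of the read pairs of the 8 class I members, the chromosome 3 genes held 47.4% in the control (exact binomial interval 46.0 to 48.8%) and 96.0% in the salinity library (interval 95.3 to 96.6%). HSP16.9A held 45.4% in the control (interval 44.0 to 46.7%) and 1.71% under salinity (interval 1.31 to 2.19%). HSP17.9A went from 33.2% (interval 31.9 to 34.5%) to 69.1% (interval 67.5 to 70.6%). HSP17.4 went from 1.56% to 11.6% and HSP18.1 from 0.951% to 6.65%, whereas HSP17.7 held 11.7% and 8.58%. Shares were not corrected for exon length. The short models of HSP17.4 and HSP17.7, at 465 and 480 bases, limit the comparison of their shares with those of other genes. Thus among the 8 members HSP16.9A led in the control library and HSP17.9A in the salinity library. With HSP17.9B counted in the pool, the chromosome 3 genes held 32.7% in the control and 87.6% under salinity, and HSP17.9B itself 31.1% and 8.68%. In the control of that pool HSP16.9A held 31.3% (interval 30.2 to 32.3%), and the interval of HSP17.9B was 30.0 to 32.1%. These intervals overlapped, so neither gene led beyond counting error.

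**Figure D3:**
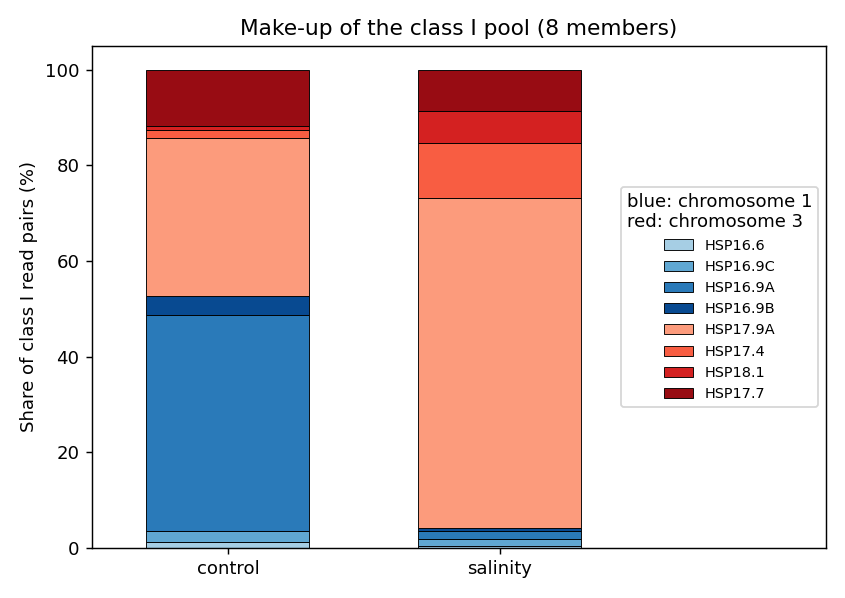
Share of the class I read pairs held by each of the 8 class I members in each library, with chromosome 1 genes in blue and chromosome 3 genes in red. The blue part shrinks from 52.6% of the control bar to 4.04% of the salinity bar, and the largest red part is HSP17.9A.

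The class II and plastid genes were both higher. HSP18.0 (LOC_Os01g08860, chromosome 1, 4449032 to 4449876, minus strand), a cytosolic class II chaperone gene, was at 9.03 CPM per kb in the control and 45.4 CPM per kb in the salinity library, on 378 and 528 counts. Its log2 ratio was 2.32 (interval 1.998 to 2.66), or 5.01-fold higher. HSP26.7 (LOC_Os03g14180, chromosome 3, 7697015 to 7698284, plus strand), whose product acts in the chloroplast, was at 5.45 and 30.9 CPM per kb, on 343 and 540 counts. Its log2 ratio was 2.50 (interval 2.17 to 2.84), or 5.64-fold higher. The ratios of HSP18.0 and HSP26.7 differed by 0.17 on the log2 scale (interval -0.31 to 0.64), within counting error. HSP18.0 lies on chromosome 1 but outside the class I cluster, so the difference in calls by chromosome concerns the class I members only.

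In order of log2 ratio the genes ran HSP17.4, HSP18.1, HSP17.9A, HSP26.7, HSP18.0, HSP17.7, HSP16.9C, HSP16.6, HSP16.9B and HSP16.9A. Among all 45 pairs, the interval of the difference included 0 in 4, without adjustment for the number of pairs. These were the adjacent pairs HSP17.4 with HSP18.1, HSP26.7 with HSP18.0, HSP17.7 with HSP16.9C and HSP16.9C with HSP16.6. The order of levels per length was different. In the control it was led by HSP16.9A, HSP17.9A and HSP17.7, at 112, 67.4 and 51.2 CPM per kb. In the salinity library it was led by HSP17.9A, HSP17.4 and HSP17.7, at 686, 257 and 184 CPM per kb.

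The measured gene models around the chromosome 3 genes lay below them in log2 ratio, whereas those around the chromosome 1 cluster overlapped the range of its members. Between and beside the chromosome 3 class I genes, a stretch of 32.9 kb with 2 models added on either side, 6 of 9 other models were measured. Of these, 0 were higher and 0 lower, and their log2 ratios ran from -1.09 to 0.69. The model next to HSP17.4, LOC_Os03g16010, was at -1.09. Around the chromosome 1 cluster, a stretch of 18.7 kb, 5 of 5 other models including HSP17.9B were measured and all were within the range, from 0.04 to 1.53. With 7.97% of all measured models higher and 5.17% lower, 0 calls among 6 or 5 models are near those shares.

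**Figure D4:**
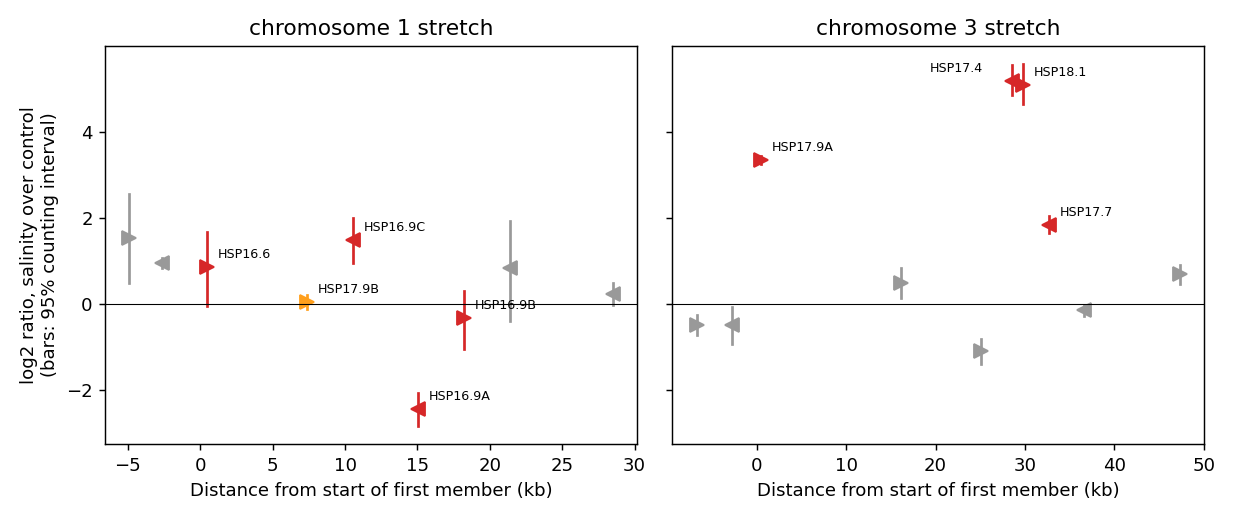
Log2 ratio with its 95% counting interval against distance along the chromosome 1 and chromosome 3 stretches, with the members in red, HSP17.9B in orange and other measured models in grey, and arrowheads giving the strand. HSP17.4 and HSP18.1 stand at 5.18 and 5.07, and the other measured models of that stretch lie between -1.09 and 0.69.

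Small heat shock genes outside the set also differed among themselves. Of 12 listed loci, 11 were measured, with 4 higher, 1 lower, 6 in neither class and a median log2 ratio of 0.78. Over all measured models 7.97% were higher and 5.17% lower. HSP16.0 was at 4.67 (interval 4.22 to 5.20) and HSP18.6 at 4.62 (interval 4.37 to 4.89) on the log2 scale. HSP18.6 was at 7.46 CPM per kb in the control, a level like that of HSP17.4. The mitochondrial HSP24.1 was higher at 2.53 and HSP23.2, whose product resides in the endoplasmic reticulum, at 2.24. HSP18.9, named here to complete the count after its values were seen, was lower at -2.12 (interval -2.83 to -1.50), close to HSP16.9A. HSP21.9 had 0 counts in both libraries.

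Heat shock factors, the transcription factors that bind heat shock elements in promoters of these genes, had 9 of 20 listed genes higher and 1 lower. Their median log2 ratio was 0.97, and the shares over all measured models were 7.97% higher and 5.17% lower. HsfA2a, of the HsfA2 group of heat-inducible activators, went from 50 control counts to 1060 salinity counts, with a ratio of 6.20 on the log2 scale (interval 5.66 to 6.91). HSFA6B went from 30 to 524 counts, at 5.89 (interval 5.20 to 6.85). The class C factors HsfC2a and HsfC2b were at 4.75 and 4.35. Of the further HsfA2 genes, HsfA2c and HsfA2e were higher at 2.08 and 1.45, and HsfA2b and HsfA2d were within the range at 0.24 and 0.83. HsfA4d, named after its values were seen, was lower at -3.16 (interval -5.08 to -1.82).

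The 3 listed Clp ATPase genes were all higher. Over all measured models 7.97% were higher and 5.17% lower. HSP101, which pulls proteins out of aggregates and works with small heat shock proteins, had a log2 ratio of 3.39 (interval 3.27 to 3.51), close to that of HSP17.9A. CLPD1 was at 3.20 and CLPB-C, of the chloroplast, at 1.37. Most loci listed by hand as HSP90 and HSP70 genes were within the range, as were 23138 of all 26638 measured models. Of 8 listed HSP90 loci 7 were among the deposited gene models, and all 7 were measured. Of these 1 was higher, LOC_Os04g01740 at 3.37, and 0 were lower, near the shares over all models, with a median of 0.45. The abundant HSP81-1 and HSP81-2 were at 0.94 and 0.56. Of 12 measured HSP70 loci 3 were higher and 0 lower, with a median of 0.24, and the highest was LOC_Os05g38530 at 3.14. BIP1, the HSP70 of the endoplasmic reticulum, was at -0.23. The HSP70 loci summed to 4126 and 5659 CPM in the control and salinity libraries, against 225 and 1105 CPM for the 10 small heat shock genes.

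**Figure D5:**
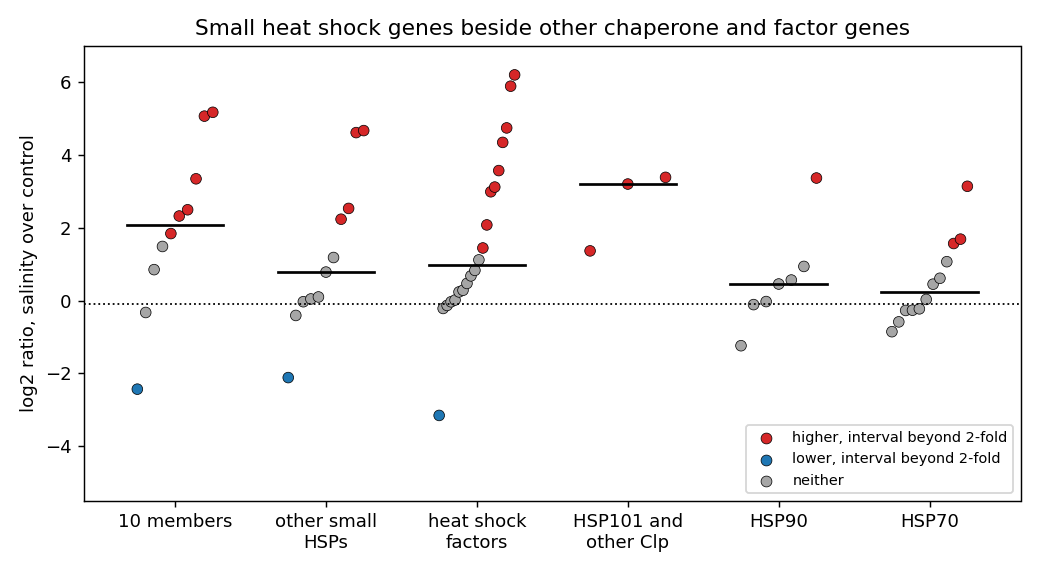
Log2 ratio of each measured gene in the set of 10 and in 5 other lists, with red for higher, blue for lower and grey for neither by the interval rule, black bars for list medians and a dotted line for the median of all measured models. The medians run from 2.08 for the 10 genes and 3.20 for the Clp genes to 0.24 for HSP70 loci.

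Grain, root and leaf genes gave the following values beside these results. AMY1A, an alpha-amylase gene of germinating grain, went from 68861 control counts to 0 salinity counts, and AMY3E from 1098 to 16. Of 7 grain genes 0 were higher and 2 lower, these being AMY1A and AMY3E. Over all measured models 7.97% were higher and 5.17% lower, so 0 higher of 7 is near that share. Of 5 root genes, the nicotianamine synthase genes NAS1 and NAS2 were lower at -3.19 and -2.07 and the nitrate transporter gene NRT2.1 was higher at 1.98. The 3 leaf antenna genes were within the range, as most measured models were, with CAB1R at 0.77 and LHCB2 at 0.35.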

How the data were processed

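Poly(A)-enriched libraries were made from 800 ng of total RNA by a NEBNext Ultra II protocol, as stated in the labels' protocols. The deposited values are whole-number counts per gene model with exon positions and exon length, and coordinates are those of the deposited table. The authors used STAR, featureCounts and DESeq2, per the submitters' processing notes. Versions, genome build, annotation, strand use and the treatment of reads that match several genes were not given in the sources used here. Reads of near-identical class I genes may therefore have been split or lost. No listed member shares exon bases with another model.

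From the counts, libraries were scaled with TMM factors (edgeR 4.0.16, R 4.3.3) over models reaching 10 counts across the pair of libraries. Each log2 ratio has a prior that averages 0.5 read pairs per library and is set in proportion to library size. Its 95% interval is the exact conditional binomial one (Clopper-Pearson). Without molecular identifiers, reads need not be separate molecules, and intervals and floors cover counting error only. The read-pair scale is inferred and approximate, since 11654 control values are odd. A count of 0 allows up to 3 read pairs (0.121 CPM in the control, 0.872 CPM under salinity).

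Names come from the RefSeq table of assembly ASM3414082v1, matched by name, chromosome and position within 5000 kb. All 10 members matched, 8 of them with a span within 25%. Of 52 further names 50 were found, OLE16 and LHCB2 not. HSFA6B, CLPD1 and CLPB-C replace hand-written names that the table contradicted, and other HSP90 and HSP70 loci have a hand-written family only. The name HSP16.9A follows gene order, since that entry also carries HSP16.9B. Members and lists were chosen with earlier results of these data known. Named are all members, up to 4 called genes per other list by the interval bound nearest 0, HSP101 and the HsfA2 genes. HSP81-1, HSP81-2, BIP1, HSP21.9, CAB1R, LHCB2, GLUA1, HSP17.9B and LOC_Os03g16010 were added after their values were seen. The code was run on simulated counts that held only the counting error the intervals assume. That run could not test the intervals against spread between plants or the inferred read-pair scale. Planned searches of promoters and comparisons of proteins were not run, as no sequence was used here. Other steps used Python 3.11.15 with scipy 1.17.1, numpy 2.4.6, matplotlib 3.10.9 and pandas 2.3.3.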

Additional observations from a re-analysis of the deposited data

How the results depend on the processing

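Across the other scalings, filters, count scales, priors and size rules tried, 6 or 7 of the 10 genes were higher, except with an interval beyond 4-fold. That stricter rule left 4. In every setting 1 gene was lower. HSP16.9C became higher with the deposited counts, with 2 counts per pair in both libraries, with an interval beyond 1.5-fold and by point estimate. HSP17.7 and HSP18.0 lost their calls with an interval beyond 4-fold. No called member changed sign under any of 9 alternatives. The median of the 10 genes ran from 1.83 (total counts) to 2.14 (control thinned).

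Total-count scaling moved the median log2 ratio of all models by -0.25. It gave log2 ratios of -1.66 and 3.05 for the summed chromosome 1 and chromosome 3 class I genes, a shift that the scaling fixes. HSP17.9B brought the chromosome 1 sum to -0.56, an alternative added after seeing the data. Over all models, 2124 were higher and 1376 lower (39.3% of calls lower). With total counts 1639 were higher and 2127 lower (56.5% lower), and with the deposited counts 2831 and 2755 (49.3%). An interval beyond 1.5-fold gave 3408 and 2803 (45.1% lower), one beyond 4-fold 792 and 398 (33.4%), and a point estimate of 2-fold 4223 and 5590 (57.0%). A looser rule gives more calls by construction, but the balance of higher and lower calls is not fixed by it. No paired analysis was possible because each group had 1 library, and for the same reason no replicate could be left out. Depth limits the width of the intervals, which was largest among the members for HSP16.6, on 62 salinity counts (-0.05 to 1.68).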
